A study of Rattus norvegicus with 2 samples.

Results

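Glutathione peroxidases, superoxide dismutases and catalase are the enzymes that clear superoxide and peroxides. Their genes were followed in kidney RNA of F344 rats, an inbred strain prone to chronic kidney disease with age. Members were the rows of the deposited gene table whose symbol is Gpx1, Gpx2, Gpx3, Gpx4, Gpx7, Gpx8, Sod1, Sod2, Sod3 or Cat. Of these 10 genes, 9 were found among 29516 rows, and Gpx1 was not analysed here. All 9 had a mean of at least 1 FPKM, the lower limit used for every gene, where FPKM is fragments scaled to transcript length and to library size. Rats from the NIA ageing colony entered at 16 months of age, ate a diet with 14% soy or a casein control diet for 4 months, and were 20 months old at tissue collection. The labels give 1 library per diet, so no difference below has a replicate check and no test across animals was possible. Whether a library pooled several rats, their sex and the kidney region are not stated in the labels.

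Superoxide dismutases turn superoxide into hydrogen peroxide, Sod1 with copper and zinc in the cytosol, Sod2 with manganese in mitochondria, and Sod3 with copper and zinc outside the cell. Hydrogen peroxide is then broken down by catalase, which is abundant in the peroxisomes of the proximal tubule, or reduced at the expense of glutathione by the glutathione peroxidases. Gpx2, Gpx3 and Gpx4 carry selenocysteine in the active site, whereas Gpx7 and Gpx8 use cysteine and reside in the endoplasmic reticulum. The proximal tubule is the main source of the Gpx3 protein of blood plasma.

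The 250 bases upstream of the transcription start are shown for the member that differed past the fold limit used below, Gpx2, and for 2 members that stayed within it, Sod2 and Cat. The sequences are from RefSeq on build GRCr8, each read 5′ to 3′ on the strand of its gene. In the Gpx2 and Sod2 sequences capitals mark the core of the antioxidant response element, TGACNNNGC on either strand, which the transcription factor Nrf2 binds together with small Maf proteins. In the Cat sequence they mark CCAAT boxes on either strand.
Gpx2 (chr6:101230034-101230283, minus strand): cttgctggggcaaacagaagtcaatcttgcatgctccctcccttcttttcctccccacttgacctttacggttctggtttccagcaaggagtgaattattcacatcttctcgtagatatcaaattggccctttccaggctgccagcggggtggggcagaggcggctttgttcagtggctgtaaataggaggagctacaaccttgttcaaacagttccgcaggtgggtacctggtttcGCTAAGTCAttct
Sod2 (chr1:50050169-50050418, minus strand): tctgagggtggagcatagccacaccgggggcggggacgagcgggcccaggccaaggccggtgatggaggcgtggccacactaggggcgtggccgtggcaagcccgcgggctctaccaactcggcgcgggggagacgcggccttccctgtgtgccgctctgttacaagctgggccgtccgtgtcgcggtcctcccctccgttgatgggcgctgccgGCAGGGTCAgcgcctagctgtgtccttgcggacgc
Cat (chr3:110329527-110329776, minus strand): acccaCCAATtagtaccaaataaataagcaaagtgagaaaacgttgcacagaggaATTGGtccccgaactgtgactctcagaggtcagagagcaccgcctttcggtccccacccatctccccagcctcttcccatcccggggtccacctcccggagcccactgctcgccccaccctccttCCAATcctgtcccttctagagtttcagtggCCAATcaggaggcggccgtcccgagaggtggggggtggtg

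Such windows were available for 7 of the 9 members. The core of the antioxidant response element was found in 2 of the 7, Gpx2 and Sod2, against 10.1% of 33469 RefSeq windows of this length. In Gpx2 it read GCTAAGTCA and began 13 bases upstream of the start, and in Sod2 it read GCAGGGTCA and began 35 bases upstream, both on the strand opposite to the gene. Of these 2 genes Gpx2 had the lower and Sod2 the higher value with soy, as given below. CCAAT boxes stood in 4 of the 7 windows at the first listed start, against 34% of all windows, and Cat had 4 of them. GC boxes, GGGCGG on either strand, stood in 5 of the 7, against 30.5% of all windows, with 4 upstream of the first listed start of Gpx4, of which 2 share a base. A TATA box, TATAAA on either strand, stood in Sod1 alone of the 7, against 12.9% of all windows. The GC content of the windows ran from 50.4% in Gpx2 to 71.6% in Sod2, with a median of 51.2% over all windows. A match of letters is a description and does not show that a factor binds there.

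The difference between the diets was taken as log2((soy FPKM + 0.1)/(casein FPKM + 0.1)), so a positive value means a higher level with soy, and a fold is the ratio of the FPKM values themselves. A gene counts as different when this value reaches 1.5-fold. Of the 9 members, 1 was lower by that limit, 0 were higher, and 8 lay within it. Among all 14077 genes above the level limit, the limit was passed by 8.08% on the lower side and by 3.43% on the higher side, so the count of members is near the background. Without regard to size, 5 members had higher and 4 lower values with soy, and 52.8% of the 14077 genes had a value above 0. The median log2 difference of the 9 members was 0.16, against 0.01 for all genes.

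**Figure D1:**
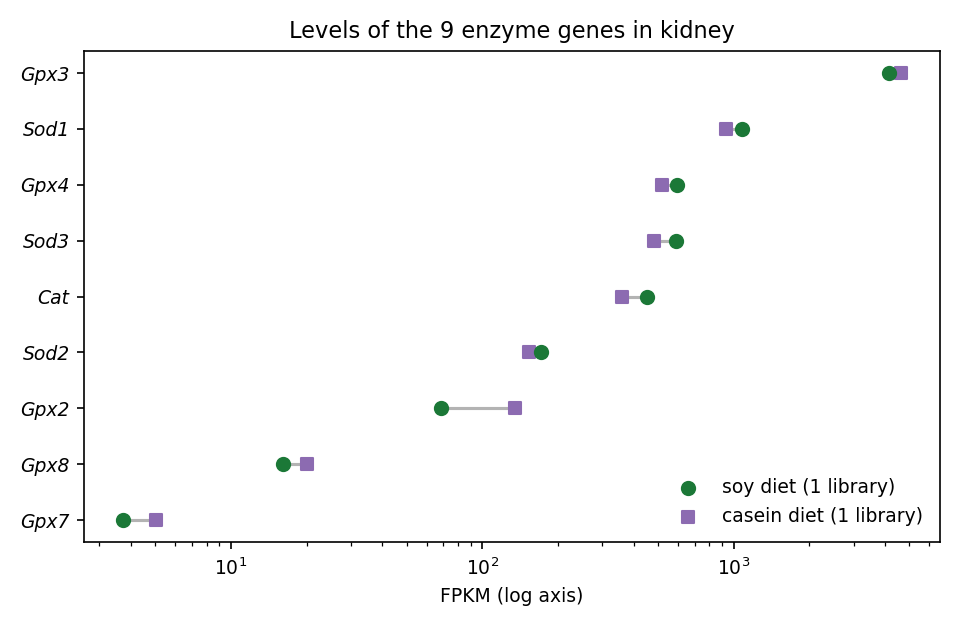
Level of each of the 9 enzyme genes in the soy library (circles) and the casein library (squares), as FPKM on a log axis, with 1 library per diet and hence no error bars. Gpx3 stands highest, at 4156 FPKM with soy and 4626 FPKM with casein, and the widest gap between the symbols is that of Gpx2, at 68.4 FPKM with soy and 135 FPKM with casein.

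Gpx2, the glutathione peroxidase of epithelia best known from the gut, was the member that differed most. It had 68.4 FPKM in the soy library, against 135 FPKM in the casein library, 1.98-fold lower with soy (log2 -0.98). Its difference ranked 519th from the lowest among 14077 genes, at percentile 3.68. Of the 1176 genes that averaged 100 FPKM or more, a limit added after the values had been seen, 3.32% passed the lower fold limit. Gpx2 averaged over 100 FPKM only through its casein value, so its rank among those genes is not given. The files place Gpx2 on chromosome 6, between bases 99372733 and 99376109, on a build that neither they nor the labels name. In the authors' deposited table Gpx2 was marked as different with q = 0.0191, as were 0.848% of the 17450 genes with status OK, and it was the only member so marked. The authors' deposited table of 145 transcripts, named as significant ones, lists a Gpx2 transcript with the same FPKM values and q = 0.0228. It rests on the same libraries and is no further check.

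Gpx3, the secreted plasma glutathione peroxidase, was the third most abundant gene of the kidney by mean. It had 4156 FPKM with soy and 4626 FPKM with casein, a log2 difference of -0.15, at percentile 23.9 of all genes. This put 85.9% of the summed FPKM of the 5 measured glutathione peroxidases on Gpx3 in the soy library and 87.2% in the casein library. Gpx1 is not in that sum. Gpx3 stood 60.8 times above Gpx2 with soy and 34.2 times above it with casein.

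Gpx4 reduces phospholipid hydroperoxides within membranes and protects cells from ferroptosis. By level it was the second of the 5 measured glutathione peroxidases, which do not include Gpx1. It had 594 FPKM with soy and 520.4 FPKM with casein (log2 0.19). Gpx4 is the only measured glutathione peroxidase with a higher value in the soy library. It made up 12.3% of the summed FPKM of those 5 genes with soy and 9.81% with casein. The ratio of Gpx4 to Gpx2 was 8.68 with soy and 3.85 with casein.

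The 2 peroxidases of the endoplasmic reticulum were the lowest members. Gpx8 had 16.1 FPKM with soy and 20.0 FPKM with casein (log2 -0.31). Gpx7 had 3.72 FPKM with soy and 5.05 FPKM with casein (log2 -0.43). Both values lay below 0 and inside the 1.5-fold limit, at percentiles 14.2 for Gpx8 and 10.9 for Gpx7 of all genes. Summed over the 5 measured glutathione peroxidases, the level was 4838 FPKM with soy and 5307 FPKM with casein (log2 -0.13). Without Gpx3 the sums were 682 FPKM with soy and 681 FPKM with casein, the lower Gpx2 standing against the higher Gpx4. Another 2 rows of the table are described as glutathione peroxidase under protein-entry names, on chromosome 17, and are listed at 0 in both libraries.

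All 3 superoxide dismutase genes had higher values with soy, each inside the 1.5-fold limit. Sod1 had 1077 FPKM with soy and 930.5 FPKM with casein (log2 0.21). Sod3 had 591 FPKM with soy and 481 FPKM with casein (log2 0.29), and Sod2 had 171 FPKM with soy and 153 FPKM with casein (log2 0.16). The proportions between the 3 genes were nearly equal in the 2 libraries: Sod1 held 58.6% of their summed FPKM with soy and 59.5% with casein, Sod3 held 32.1% with soy and 30.8% with casein, and Sod2 held 9.32% with soy and 9.77% with casein. The sums were 1839 FPKM with soy and 1565 FPKM with casein (log2 0.23). Ccs, the chaperone that loads copper into Sod1, had 71.8 FPKM with soy and 64.2 FPKM with casein (log2 0.16).

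Cat, the catalase gene, had 451 FPKM with soy and 360.2 FPKM with casein, 1.252-fold higher with soy (log2 0.32). That is the highest log2 difference among the members, at percentile 90.4 of all genes and 88.7 of those averaging 100 FPKM or more. The ratio of Sod1 to Cat was 2.39 with soy and 2.58 with casein. Small positive differences were common among abundant genes: 61.6% of the 1176 genes averaging 100 FPKM or more had a value above 0. Of the 7 members at that level, which Gpx2 reached only through its casein value, 5 had a value above 0. In the authors' deposited table, Cat, the 3 superoxide dismutases, Gpx3, Gpx4, Gpx7 and Gpx8 were not called, each with q = 0.999991.

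**Figure D2:**
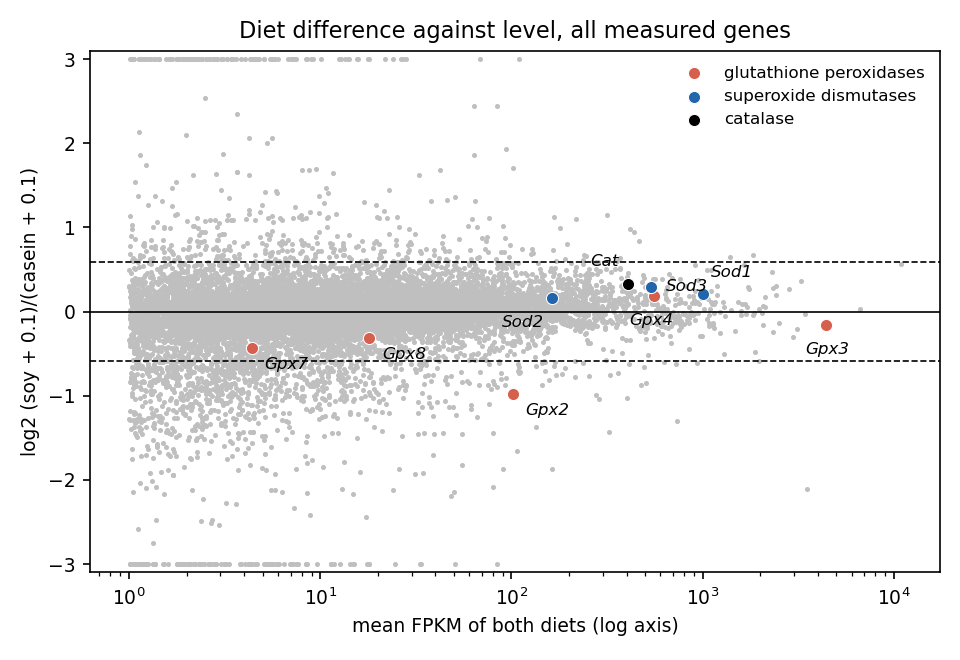
Difference between the diets, as log2((soy + 0.1)/(casein + 0.1)), against mean FPKM on a log axis for 14077 genes (grey, values past 3 drawn at 3) and the 9 enzyme genes (coloured by family), with dashed lines at 1.5-fold. Gpx2 lies below the lower line at -0.98, and the other 8 lie between the lines.

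The order of levels was the same with both diets: Gpx3, Sod1, Gpx4, Sod3, Cat, Sod2, Gpx2, Gpx8 and Gpx7. With 1 library per diet it cannot be said which neighbours differ beyond their spread, and Gpx4 and Sod3 were close at 594 and 591 FPKM with soy. Genes at the most similar levels were sought by Euclidean distance between log2 FPKM in the 2 libraries, among 7237 named genes averaging 5 FPKM or more. Nearest to Gpx2 were Tubb5, a beta-tubulin gene (68.1 FPKM with soy, 118 FPKM with casein, distance 0.19), and Serpinh1, which encodes a collagen chaperone (82.2 FPKM with soy, 136 FPKM with casein, distance 0.27). Nearest to Cat were Akr7a2, an aldehyde reductase gene (449 FPKM with soy, 361 FPKM with casein, distance 0.0077), and Aadat, an aminotransferase gene (438 FPKM with soy, 366 FPKM with casein, distance 0.048). Gpx3 had no close neighbour, and the nearest was the ferritin gene Fth1 (3405 FPKM with soy, 3476 FPKM with casein, distance 0.50).

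Glutathione, the cofactor of the peroxidases, is made by glutamate cysteine ligase (Gclc and Gclm) and glutathione synthetase (Gss), and oxidised glutathione is reduced again by Gsr. Of 20 measured genes for glutathione synthesis and recycling, 16 had higher values with soy and 4 lower, where 52.8% of all genes had a value above 0. Of the 20, 3 passed the 1.5-fold limit on the higher side and 0 on the lower side, against 3.43% and 8.08% of all genes. The median log2 difference was 0.42, against 0.01 over all genes and 0.05 over genes averaging 100 FPKM or more. Gclc had 1692 FPKM with soy and 1081 FPKM with casein, 1.57-fold higher (log2 0.65). Gclm had 1083 FPKM with soy and 741 FPKM with casein (log2 0.55), and Gss had 325 FPKM with soy and 238 FPKM with casein (log2 0.45). Cth, which makes cysteine, had 428 FPKM with soy and 282 FPKM with casein (log2 0.60), and the neutral amino acid transporter gene Slc1a4 had 8.37 FPKM with soy and 5.05 FPKM with casein (log2 0.72). Slc3a1, which encodes a subunit of the cystine transporter of the proximal tubule, had 1949 FPKM with soy and 1325 FPKM with casein (log2 0.56). Gsr itself had 109.9 FPKM with soy and 101 FPKM with casein (log2 0.12). The authors' deposited table marks 0 of the 20 as different, against 0.848% of all genes with status OK.

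Nrf2 targets went both ways. Of 21 measured targets and regulators, 12 had higher values with soy and 9 lower, where 52.8% of all genes had a value above 0. The median log2 difference was 0.02. The 1.5-fold limit was passed by 2 higher genes and 1 lower gene, against 3.43% and 8.08% of all genes. These counts are near the background. The higher 2 were Gclc and Osgin1, an oxidative stress-induced growth inhibitor (333 FPKM with soy, 221 FPKM with casein, log2 0.59). The lower one was Hmox1, which encodes the haem-degrading enzyme heme oxygenase 1 (4.51 FPKM with soy, 8.15 FPKM with casein, log2 -0.84). Gpx2 is a target of Nrf2 as well and lay on the side of Hmox1.

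Genes that serve selenoproteins differed little. Of 11 measured genes for selenocysteine and selenium handling, 9 had higher values with soy, including 1 past the 1.5-fold limit, and the median log2 difference was 0.11. That gene was Lrp2, the megalin gene of the proximal tubule, whose protein takes up filtered selenoprotein P (24.7 FPKM with soy, 15.9 FPKM with casein, log2 0.63). Sephs2, which makes the selenium donor for selenocysteine, had 171 FPKM with soy and 138 FPKM with casein (log2 0.31). A list of 13 other genes, Ccs and 12 selenoprotein genes, had 9 higher and 4 lower values and a median log2 difference of 0.05. In it Sepp1, the selenoprotein P gene, had 1897 FPKM with soy and 1572 FPKM with casein (log2 0.27), and Sepw1, the selenoprotein W gene, was 1.55-fold lower with soy, at 28.1 FPKM against 43.6 FPKM with casein (log2 -0.63).

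The peroxiredoxins, peroxidases most of which draw on thioredoxin in place of glutathione, also lay within 1.5-fold. All 11 measured genes of the peroxiredoxin and thioredoxin system did so, 7 with higher and 4 with lower values with soy and a median log2 difference of 0.14. Among all genes 52.8% had a value above 0, 8.08% were at least 1.5-fold lower and 3.43% at least 1.5-fold higher. Most genes of any kind thus lay within the limit. Prdx6, which reduces phospholipid peroxides, had 325 FPKM with soy and 274 FPKM with casein (log2 0.25), and Prdx4, the peroxiredoxin of the endoplasmic reticulum, 21.7 FPKM with soy and 27.8 FPKM with casein (log2 -0.35). Of 17 measured glutathione transferase genes, 12 had higher values with soy, none by 1.5-fold, and 1 was at least 1.5-fold lower, with a median log2 difference of 0.09. That gene was Gstm1 (25.8 FPKM with soy, 39.7 FPKM with casein, log2 -0.62), whose fragments can be shared with related genes of its family.

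All 30 measured genes on the list for peroxisomes, the organelles that hold catalase, lay within 1.5-fold. Of these, 24 had higher and 6 lower values with soy, and their median log2 difference was 0.15. The shares of all genes were 52.8% with a value above 0, 8.08% at least 1.5-fold lower and 3.43% at least 1.5-fold higher. The peroxisomal oxidase genes Acox2 and Acox3 were on another list. Acox2 was past the limit on the higher side (log2 0.81) and Acox3 lay within it (log2 -0.01). Ehhadh, a peroxisomal enzyme of fatty acid oxidation, had 100.3 FPKM with soy and 73.2 FPKM with casein (log2 0.45), and Hao2, a hydroxyacid oxidase that produces hydrogen peroxide, 1906 FPKM with soy and 1553 FPKM with casein (log2 0.30). Of 15 measured genes of mitochondrial oxidant defence and control, the compartment of Sod2, 13 had higher values with soy and the median was 0.10. Prdx3, Prdx5, Txn2 and Txnrd2 were already counted with the peroxiredoxins, and Nnt, Idh2 and Glrx5 with the glutathione genes, all with higher values. The largest difference on the mitochondrial list was that of Ucp2, an uncoupling protein gene also expressed in leukocytes. It had 42.4 FPKM with soy and 75.4 FPKM with casein (log2 -0.83), marked as different in the authors' deposited table with q = 0.0448. Of 14 measured genes of oxidative folding in the endoplasmic reticulum, the compartment of Gpx7 and Gpx8, 5 had higher and 9 lower values with soy, with a median of -0.05.

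**Figure D3:**
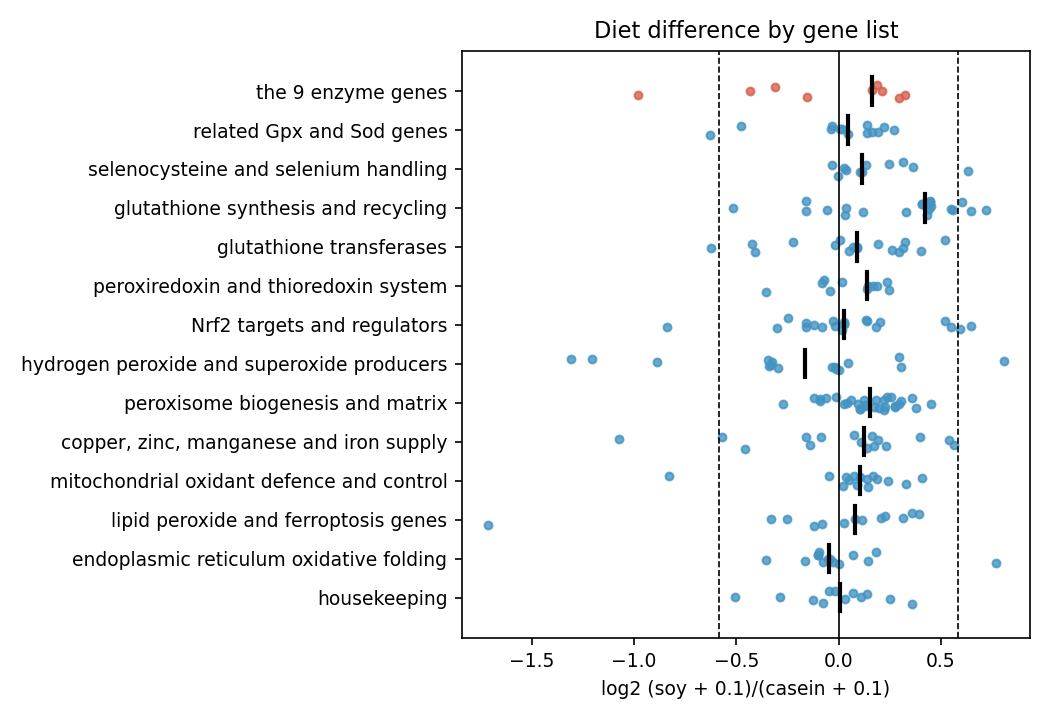
Log2((soy + 0.1)/(casein + 0.1)) of each measured gene (points, jittered up and down) and the list median (black bar) for the 9 enzyme genes and 13 lists, with dashed lines at 1.5-fold. The median of glutathione synthesis and recycling, 0.42, is the highest of the list medians shown.

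In a bulk tissue library, fewer cells of a type and less RNA per cell cannot be told apart, and marker genes of several cell types also differed between the diets. Markers of the proximal tubule, the segment known for Gpx3 and Cat, had higher values with soy for 10 of 12 genes, a median log2 difference of 0.37, and a summed level of 7854 FPKM with soy and 5789 FPKM with casein. Among these the most abundant were Miox, an inositol oxygenase gene, at 2678 FPKM with soy and 1928 FPKM with casein, and Slc7a13, an amino acid transporter gene, at 2246 FPKM with soy and 1412 FPKM with casein. The early tubule transporters Slc5a2 (10.7 FPKM with soy, 21.8 FPKM with casein) and Slc5a12 (6.85 FPKM with soy, 16.4 FPKM with casein) were at least 1.5-fold lower with soy. Slc5a12 was the only proximal tubule marker marked as different in the authors' deposited table (q = 0.00044), as were 0.848% of all genes with status OK. Among all genes 52.8% had a value above 0 and 8.08% were at least 1.5-fold lower. Cat and 16 of the 20 glutathione genes lay on the same side as most of the proximal tubule markers, and Gpx3, with a log2 difference of -0.15, on the other. The part of the markers in these values was not tested.

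Injured tubule markers had lower values with soy for all 8 measured genes, 7 past the 1.5-fold limit, and summed to 404 FPKM with soy and 1021 FPKM with casein. By comparison, 8.08% of all genes were at least 1.5-fold lower and 52.8% had a value above 0. Clu, the clusterin gene, had 174 FPKM with soy and 471 FPKM with casein. Macrophage and other myeloid markers were lower for all 9 measured genes (428 FPKM with soy and 797 FPKM with casein in sum), and lymphocyte markers for all 8 (35.2 FPKM with soy and 83.8 FPKM with casein in sum). Fibroblast and matrix markers were lower for 7 of 8 (164 FPKM with soy, 235 FPKM with casein in sum). Of the 6 urothelium and papillary surface markers found, 3 were measured, 2 lower and 1 higher with soy, and the 6 found summed to 167 FPKM with soy and 206 FPKM with casein. The other 3, Upk1b, Upk2 and Upk3a, averaged under 1 FPKM and had lower values with soy, and with them the median log2 difference was -0.51 in place of -0.27. The part of these cell types in the lower Gpx2, Gpx7 and Gpx8 values was not tested.

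Endothelial markers had higher values for 5 of 6 genes (137 FPKM with soy, 116 FPKM with casein in sum). Smooth muscle and pericyte markers split, 2 higher and 2 lower, and were lower in sum (70.9 FPKM with soy, 97.3 FPKM with casein). Markers of the thick limb, distal tubule and collecting duct were higher for 7 of 11, and Pvalb was listed at 0 in both libraries. The most abundant of them was the uromodulin gene Umod, at 3662 FPKM with soy and 2842 FPKM with casein. Past the 1.5-fold limit were Slc4a1, an anion exchanger gene, on the higher side (74.5 FPKM with soy, 48.2 FPKM with casein) and Calb1, a calcium-binding protein gene, on the lower side (101.7 FPKM with soy, 186 FPKM with casein). The part of these cell types in the values of the 9 members was not tested. All 6 podocyte markers had lower values with soy, none by 1.5-fold. The 12 housekeeping genes had a median log2 difference of 0.01, with 6 higher and 6 lower.

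**Figure D4:**
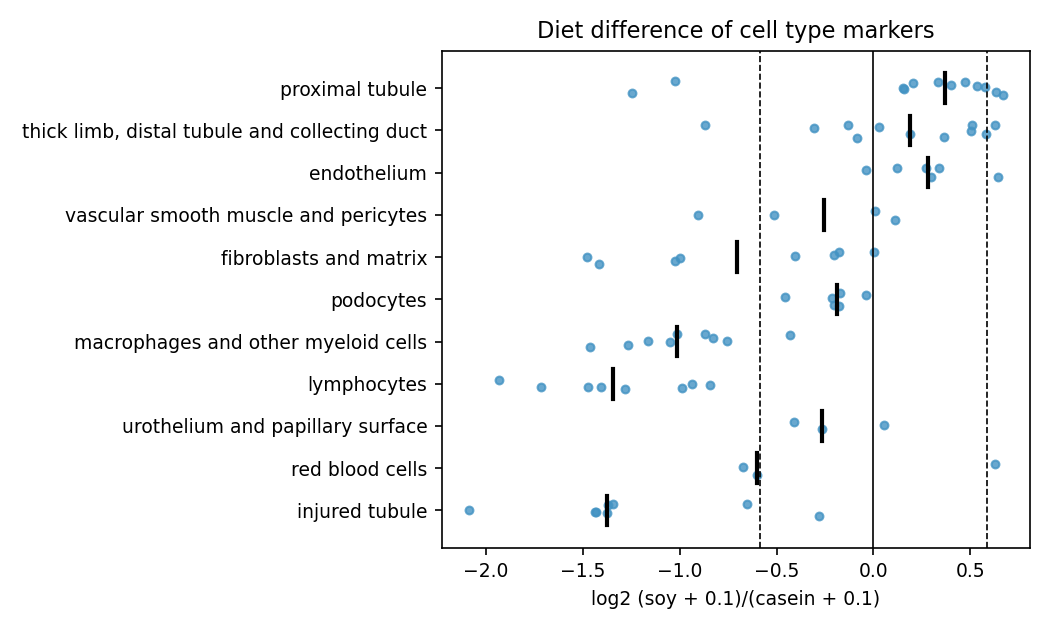
Log2((soy + 0.1)/(casein + 0.1)) of each measured marker gene (points, jittered up and down) and the list median (black bar) for 11 cell type lists, with dashed lines at 1.5-fold. Proximal tubule genes have a median of 0.37, and the medians of myeloid, lymphocyte and injured tubule genes lie at -1.02, -1.34 and -1.37.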

How the data were processed

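Kidney RNA was sequenced from TruSeq libraries of 1 soy and 1 casein sample. Per the submitters' processing notes, Bowtie, TopHat and Cufflinks were used, without versions. Neither labels nor files name a genome build or annotation release. The deposited tables hold FPKM values per gene and per transcript, and the authors' log2 fold, p-value and q-value. The number of libraries behind that test is not stated.

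Since FPKM is no count, absolute depth is unknown and no counting interval is given. Among 1470 genes with a mean under 0.05 FPKM and above 0 in both libraries, the most common ratio of soy to casein was 1.09. It held, within 5%, for 227 of them, and 50.3% lay within 5% of it times a ratio of whole numbers up to 4, so whole fragments were not recovered and the relative depth is a rough estimate. FPKM summed to 656248 with soy and 643145 with casein.

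With 1 library per diet no test was run. The log2 difference used a pseudocount of 0.1, which understates differences of low genes, a minimum mean of 1 FPKM and a 1.5-fold limit. The members and 24 gene lists were chosen with earlier results of these data known. Some genes are on several lists, so the lists are not separate checks of one another. The lists hold 374 entries, of which 312 matched a row and 287 passed the level limit; symbols and synonyms came from the RefSeq gene table, whose build is GRCr8, used for names only. Named genes are the 9 members, the 3 largest differences and the highest level of each pathway list, the 2 highest of each marker list and the 2 nearest genes of a member; other genes named were chosen after their values were seen, and some genes under this rule are not reported here. Alternatives were other pseudocounts, filters, scalings and fold limits, and, chosen after seeing the data, a minimum mean of 100 FPKM and the omission of short RNAs. Tables were computed with pandas 2.3.3 and numpy 2.4.6 in Python 3.11.15, and figures drawn with matplotlib 3.10.9.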

Additional observations from a re-analysis of the deposited data

How the results depend on the processing

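The count of 1 member at least 1.5-fold lower and 0 at least 1.5-fold higher with soy was unchanged with other pseudocounts, minimum means, scalings, status OK alone or short RNAs left out, the last and a minimum mean of 100 FPKM being chosen after seeing the data. With a 2-fold limit 0 members were lower, since Gpx2 was 1.98-fold lower, and 0 were higher. Of all 14077 genes, 3.59% were lower and 1.55% higher by that limit. With a limit of 0.32 on the log2 scale 2 members were lower (Gpx2 and Gpx7) and 1 higher (Cat). By this limit 13.9% of all genes were lower and 9.70% higher. With a minimum mean of 5 FPKM, Gpx7 dropped out. With a minimum mean of 100 FPKM, Gpx2 remained only through its casein value. Under the pseudocounts and scalings tried, Gpx2 ranged from -1.01 to -0.97, Cat from 0.29 to 0.32 and Gpx7 from -0.46 to -0.36 (log2). All 9 members kept their direction in all 45 values, but no other outcome was possible. A pseudocount cannot change a sign. The 3 scalings shifted log2 differences by about 0.0065, 0.013 and 0.029, and the smallest difference of a member was -0.15 (Gpx3). The summed glutathione peroxidases gave a log2 difference of 0.0024 without Gpx3, in place of -0.13. Of 216 list medians under the alternatives, 208 moved by less than 0.1 and 0 crossed the 1.5-fold limit. The other 8 were fibroblasts (-1.01 with no filter and -1.0003 with status OK alone, in place of -0.70), urothelium (-0.51 with no filter, in place of -0.27), smooth muscle (-0.52, in place of -0.25) and peroxide producers (-0.02, in place of -0.17) at a minimum mean of 5 FPKM, lymphocytes (-1.02, in place of -1.34) with a pseudocount of 1, and myeloid cells (-0.87 under either of these last 2 settings, in place of -1.02). No paired analysis was possible because each diet has 1 library. The unknown depth and the single library per diet limit every value.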

Other observations

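Of 16 measured genes that produce hydrogen peroxide or superoxide, 5 had higher and 11 lower values with soy. A value above 0 was held by 52.8% of all genes. The list median was a log2 difference of -0.17, and -0.02 at a minimum mean of 5 FPKM. The lower ones included Cybb, a subunit gene of the phagocyte NADPH oxidase (6.33 FPKM with soy, 11.8 FPKM with casein), and the GTPase gene Rac2 (13.8 FPKM with soy, 32.1 FPKM with casein), the last marked as different in the authors' deposited table with q = 0.0059. Acox2, a peroxisomal acyl-CoA oxidase gene, was past the 1.5-fold limit on the higher side (25.9 FPKM with soy, 14.8 FPKM with casein). The summed level of the list ran opposite to its median, at 3179 FPKM with soy and 2734 FPKM with casein. Most of that sum came from Hao2 (1906 FPKM with soy, 1553 FPKM with casein) and Dao (902 FPKM with soy, 730 FPKM with casein). Both are also on the peroxisome list, so the sum says little about the other genes of the list. All 9 measured myeloid markers were also lower with soy, and their part in these values was not tested.

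Of 16 measured genes that supply copper, zinc, manganese or iron, 10 had higher and 6 lower values with soy, with a median of 0.12. Among all genes 52.8% had a value above 0. Cp, which encodes the copper-carrying ferroxidase ceruloplasmin, had 26.4 FPKM with soy and 55.6 FPKM with casein, marked as different in the authors' deposited table with q = 0.00185. The manganese and zinc importers split, Slc39a14 at 6.15 FPKM with soy and 9.16 FPKM with casein, and Slc39a8 at 31.5 FPKM with soy and 21.3 FPKM with casein. Of 13 measured genes of lipid peroxidation and ferroptosis, 8 had higher and 5 lower values with soy. In that list Ptgs2, the inducible cyclooxygenase gene, had 0.71 FPKM with soy and 2.57 FPKM with casein (log2 -1.71), and the mitochondrial iron-sulfur protein gene Cisd1 692 FPKM with soy and 528 FPKM with casein (log2 0.39).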
